A study of Monodelphis domestica with 2 samples.

Results

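The collagens, laminins, integrins, matrix proteases and their inhibitors of the opossum primary visual cortex (V1) were chosen by gene symbol alone. The members were the genes whose symbol began with COL, LAMA, LAMB, LAMC, ITGA, ITGB, ADAMTS, MMP, TIMP, HMCN, THSD, THBS, NID or FBN in the form that these families use, together with FN1. They numbered 104 of the 30800 genes in the count files, of which 11590 carried a symbol. The counts came from single nuclei of V1 of 2 adult male gray short-tailed opossums (Monodelphis domestica), aged 1.5 years (animal 1) and 2 years (animal 2). These animals formed 1 group with no treatment, and their tissue was frozen, stored and sorted as nuclei stained for DNA. The deposited annotation placed 32764 nuclei in 18 subclasses, and the raw counts of each subclass were summed per animal and expressed as CPM, which scales the counts of a gene to a common total. Values below are given as the sum of animal 1 and then that of animal 2.

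The extracellular matrix of the brain is made by neurons, glia and vessels together. Laminins are trimers of an alpha, a beta and a gamma chain, and with collagen IV and nidogen they build the basement membrane on which endothelial cells and astrocyte endfeet rest. Integrins are pairs of an alpha and a beta chain that hold cells to this matrix. Matrix metalloproteinases (MMPs) and the ADAMTS proteases cut matrix proteins, with the lecticans around neurons among the known substrates of several ADAMTS members, and TIMPs inhibit these enzymes.

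The sums held 504200 to 53793396 UMIs (unique molecular identifiers, each standing for 1 RNA molecule), apart from the endothelial sums with 48514 and 57864 UMIs from 29 and 36 nuclei. A count of 0 in the endothelial nuclei of both animals allows a level of up to 28.2 CPM, against 2.84 CPM in L6b, 2.59 CPM in microglia and at most 1.51 CPM in the other subclasses. Such limits cover counting error only. The endothelial label fitted its markers: 10 of 13 listed markers had a symbol, their summed level was 8659 CPM in endothelial nuclei, and it was 13.6 to 177 CPM elsewhere. Of these 10 markers 9 were highest in endothelial nuclei and 1 in oligodendrocytes. Of the 8 mural markers with a symbol, 6 were at 0 in endothelial nuclei (PDGFRB, KCNJ8, ABCC9, NOTCH3, MYH11 and TAGLN), and of 8 fibroblast markers 5 were at 0, with a summed level of 248 CPM. Microglia, astrocytes, oligodendrocytes (OD) and oligodendrocyte precursors (OPCs) each held the highest level of all their own listed markers that had a symbol. These were 8 of 10, 6 of 6, 5 of 6 and 3 of 6 listed markers. The listed neuronal markers summed to 3794 to 5594 CPM in neuronal subclasses and to 366 to 1198 CPM in non-neuronal ones, with the latter value in OPCs, and the part of free neuronal RNA in the non-neuronal levels below was not tested. The libraries shared 134 barcodes between pairs. Per the labels the animals were processed in parallel by different experimenters, and therefore animal, age and handling cannot be told apart.

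For many members 1 subclass stood apart from the others. After the filter on low counts 84 of the 104 members were tested among 17227 genes, and the other 20 reached at most 8.64 CPM in any subclass. For 61 of the 84 tested members both animals of the highest subclass lay above every other sum, which is 72.6%, and over all genes tested this share was 43.0%. The highest level lay in a non-neuronal subclass for 51 members (60.7%, against 59.9% of all genes), in a glutamatergic one for 20 (23.8%, against 21.2%) and in a GABAergic one for 13 (15.5%, against 18.9%). Endothelial nuclei held the highest level of 25 members (29.8%, against 19.7% of all genes), OPCs of 10 (11.9%, against 5.53%), microglia of 7 (8.33%, against 16.6%), L6b of 7 (8.33%, against 5.44%) and astrocytes of 6 (7.14%, against 9.61%). For 19 of the 25 both endothelial sums lay above every other sum (22.6% of tested members, against 6.91% of all genes). Others of the 25 rested on few counts, such as MMP14 and ADAMTSL4 with 1 UMI each. No tested member was highest in L5PT or Lamp5 nuclei, which held the highest level of 1.91% and 3.68% of all genes. Among the 20 members without a test were the interstitial collagens COL1A1, with 83 UMIs in all labelled nuclei, and COL3A1, with 39 UMIs. MMP1 had 1 UMI, and MMP13 had none. ITGAM, the alpha chain of the CD11b receptor of myeloid cells, had 22 UMIs in all and none in microglia.

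**Figure D1:**
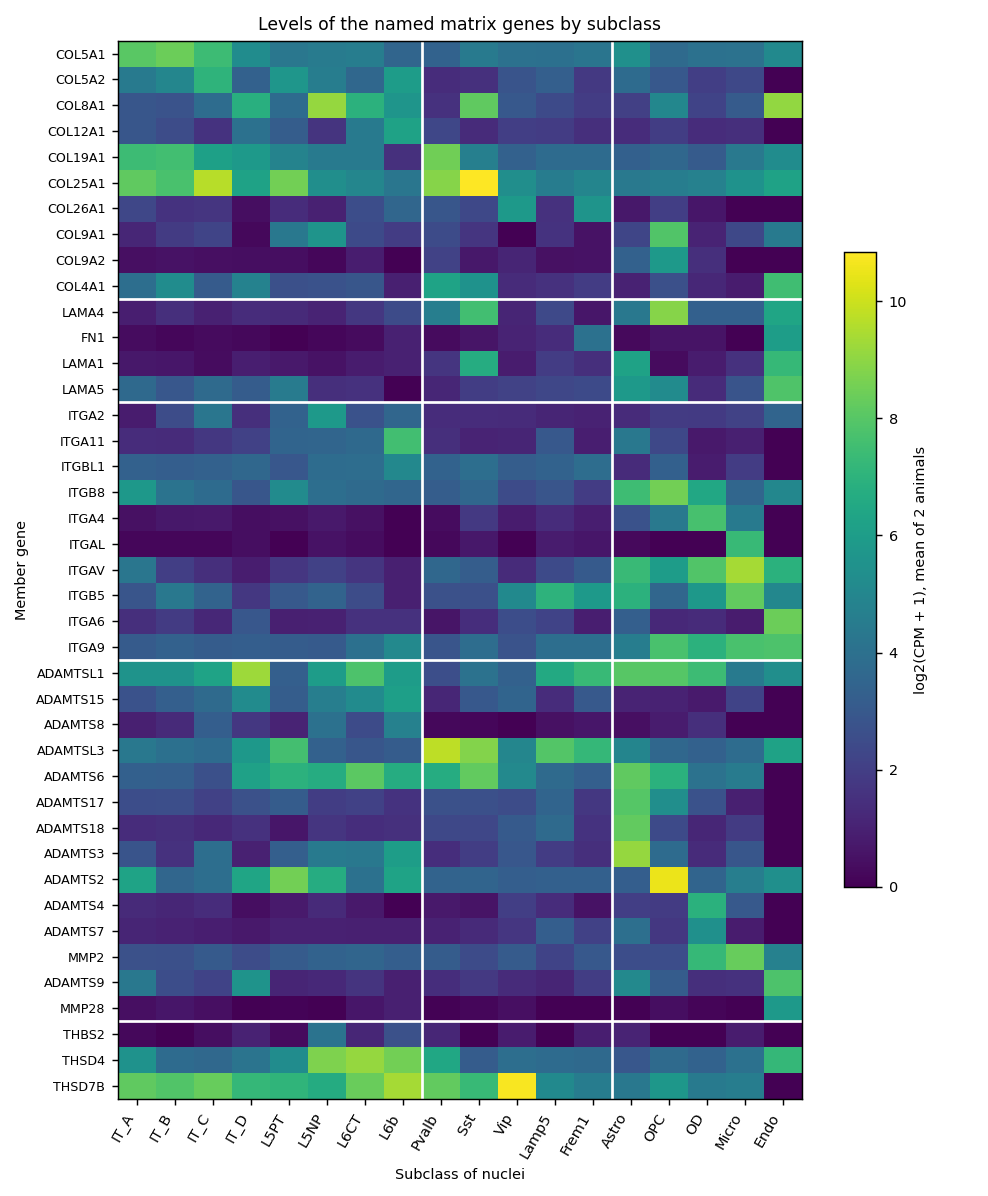
Mean level of members named by a fixed rule in each of the 18 subclasses, as log2(CPM + 1) averaged over 2 animals. Columns run from glutamatergic to GABAergic to non-neuronal subclasses, rows are grouped as collagens, laminins with FN1, integrins, proteases and thrombospondin-type genes, and white lines separate these groups. COL25A1 in Sst nuclei (1822 CPM) and THSD7B in Vip nuclei (1706 CPM) are the brightest cells.

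The first comparison set the 5 non-neuronal subclasses against the 13 neuronal ones, each subclass with equal weight. Of 10 tested laminin chains 5 were higher in non-neuronal nuclei and 2 lower, and of 10 integrin alpha chains 4 were higher and 1 lower. The higher calls of LAMA2, LAMA3, ITGA1 and ITGA6 rested on the endothelial sums, and without these the log2 fold changes were -0.03, -0.35, 0.52 and 0.06, with none called. Of 4 tested THSD genes 3 were lower, and these were THSD4, THSD7A and THSD7B. Both tested transmembrane collagens were lower as well, the genes COL23A1 and COL25A1. COL23A1 was low throughout, at a mean of 4.85 CPM in neuronal and 1.80 CPM in non-neuronal subclasses, and its log2 fold change of -2.63 depended on sums at 0: the difference was 0.13 with these at 3 counts and -1.33, still called, without the endothelial sums. The THSD7A call was lost without the endothelial sums (log2 fold change -0.08). Of 84 members, 17 were called higher (20.2%, against 14.6% of all genes tested and 18.5% of those with a symbol, which every member has) and 24 lower (28.6%, against 30.2% and 32.2%) by edgeR's quasi-likelihood test. The members' median log2 fold change was -0.24, and that of all genes was -0.44. Both medians depended on the scaling: they were -0.08 and -0.24 without TMM normalization and 0.18 and -0.01 with DESeq2 size factors, and DESeq2 called 34 members higher and 23 lower. With at most 100 nuclei per sum 8 members were called higher. Since subclass labels were drawn from clusters of these nuclei, p-values measure a difference against the spread of 2 animals, not between groups defined apart from the RNA.

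ITGAV, an alpha chain that binds vitronectin and latent TGF-beta, showed the largest rise in non-neuronal nuclei. Its level was 0 to 18.01 CPM in neuronal sums and 57.8 to 733 CPM in non-neuronal sums, with no overlap (log2 fold change 5.47, SE 0.26, adjusted p = 6.93e-17). ITGA9, a receptor chain for tenascin and other ligands, ranged from 5.47 to 49.6 CPM in neuronal sums, with its top value in L6b, and from 20.2 to 346 CPM in non-neuronal sums (log2 fold change 3.36, SE 0.21, adjusted p = 3.49e-14). These ranges overlapped through astrocytes and L6b. ITGB8, a partner of ITGAV, was called higher (log2 fold change 2.40), with 392 and 347 CPM in OPCs and 154 and 198 CPM in astrocytes against 0.892 to 54.9 CPM in neuronal sums. That call was lost when labels were predicted from other genes (log2 fold change 0.23). LAMA4 and LAMA5, laminin alpha chains of vessels, were also called higher (log2 fold changes 3.43 and 2.51), and both calls were lost with at most 100 nuclei per sum.

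The named members that were lower in non-neuronal nuclei included THSD7B, COL26A1, ADAMTS15 and ITGBL1. These 4 had no UMI in endothelial nuclei, where sums at 0 enter the fitted size, and values without the endothelial sums, an alternative chosen after seeing the data, are given here. THSD7B, a membrane protein with thrombospondin repeats, was at 22.3 to 1787 CPM in neuronal sums and 16.8 to 58.5 CPM in glia, with a log2 fold change of -2.98. The lowest neuronal sums, those of Frem1 and Lamp5, overlapped with the glial ones. ADAMTS15, a protease that cleaves lecticans, was at 41.8 and 93.2 CPM in L6b and 0.409 to 3.77 CPM in glia (log2 fold change -3.05). ITGBL1, an integrin beta-like protein, was called lower as well (log2 fold change -2.26 without the endothelial sums). COL26A1 also had microglial sums at 0, and its call was lost with at most 100 nuclei per sum. Without the endothelial sums 23 members were called higher, 12 of them among the 17 of the full fit, and 28 lower, 22 of them among the 24. Some members without a UMI in endothelial nuclei had errors too large for a call in the full fit. Examples are ITGA4 (log2 fold change 3.50, SE 8386) and ADAMTS4 (log2 fold change 1.76, SE 3205). Both were called higher without the endothelial sums, with log2 fold changes of 5.57 and 3.52.

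Several basement membrane chains were highest in endothelial nuclei. Of 84 members, 23 were called higher there than in the mean of the other 17 subclasses (27.4%), against 5.58% of all genes tested, and 4 were called lower (4.76%, against 8.54%). Scaling moved the endothelial comparison most: the median of all genes was -1.35 with TMM, -0.60 without it and 0.20 with DESeq2, while the members' medians were -0.17, 0.61 and 1.05. All 23 calls were kept in both alternatives, which called 26 and 27 members. The members higher in endothelial nuclei included 5 of 10 tested laminin chains, 2 of 3 basement membrane collagens and 4 of 10 integrin alpha chains. For ITGB4 and TIMP3 the animals went opposite ways, and these calls rest on 1 animal each.

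LAMA3, an alpha chain best known from epithelial laminin, had 21 and 29 UMIs in endothelial nuclei, or 433 and 501 CPM. No other sum exceeded 8.74 CPM (Sst of animal 1), and the endothelial level over both animals was 470.0 CPM (95% interval 349 to 619.7) (log2 fold change 5.93, SE 0.35, adjusted p = 1.01e-13). LAMA2, the alpha chain of muscle and glial laminin, stood at 371 and 138 CPM against at most 12.6 CPM (IT_C of animal 2) elsewhere. LAMA5, an alpha chain of mature vessel laminin, was at 144 and 311 CPM, with astrocytes next at 57.6 and 52.6 CPM. Both endothelial sums of these genes exceeded all others. LAMA1, among the 4 named members of this comparison, was at 165 and 138 CPM from 8 and 8 UMIs (log2 fold change 5.97, SE 0.85, adjusted p = 3.14e-06). LAMA4, in contrast, was at 144 and 17.3 CPM and was not called (adjusted p = 0.0507), and in animal 2 its UMIs came from 1 nucleus.

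Collagen IV is the network-forming collagen of basement membranes, assembled from alpha chains such as COL4A1 and COL4A2. COL4A2 was at 453 and 397 CPM in endothelial nuclei and COL4A1 at 124 and 242 CPM. Both animals lay above every other sum for each gene, with Pvalb nuclei next at 102 CPM for COL4A2 and 76.7 CPM for COL4A1 (log2 fold changes 4.29 and 4.30). Across the 18 subclasses the log2 levels of these partners gave a Pearson correlation of 0.978, the highest of 24 partner pairs, which ranged from -0.667 (ITGA11 with ITGB1) upward, with 0.487 for COL9A1 with COL9A2 and 0.426 for COL5A1 with COL5A2. The Spearman correlations were 0.944 for COL4A1 with COL4A2, -0.117 for COL9A1 with COL9A2 and 0.377 for COL5A1 with COL5A2. These are descriptions in which the points share libraries and depth. COL8A1, a short-chain collagen of vessel walls, was at 412 and 674 CPM, and 51.3% of its 39 UMIs in animal 2 came from 1 nucleus. NID1, which links laminin to collagen IV, had no UMI in endothelial nuclei and was at 28.4 and 20.5 CPM in OPCs, and the mean of 24.5 CPM is below the 28.2 CPM that the 0 in endothelial nuclei allows.

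Among endothelial receptors ITGA6, a laminin receptor alpha chain, showed the clearest restriction. It was at 453 and 225 CPM, and no other sum exceeded 9.41 CPM (Astro of animal 1) (log2 fold change 6.71, SE 0.41, adjusted p = 1.44e-13). ITGA1, a collagen receptor chain, followed the same order with 309 and 225 CPM against at most 19.2 CPM (OD of animal 1) elsewhere (log2 fold change 4.48). Their common partner ITGB1 was broad, from 8.8 to 51.8 CPM, and its endothelial sums did not stand apart from the microglial ones. FN1 and MMP28 were named from few counts. FN1, the fibronectin gene, had 2 and 5 UMIs, giving 65.8 CPM (95% interval 26.5 to 136), and Frem1 nuclei were next at 7.13 and 24.2 CPM. MMP28, a secreted metalloproteinase, had 2 and 4 UMIs, giving 56.4 CPM (95% interval 20.7 to 123), and at most 1.82 CPM (L6b of animal 1) in any other sum. In both cases the intervals lay above the levels in the other labelled subclasses. MMP28 passed the filter on low counts only through the endothelial sums, and therefore its higher call there gives no support of its own. The lower calls in endothelial nuclei were MMP16, THSD7A, THSD7B and TIMP2, the last 2 with no UMI there.

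**Figure D2:**
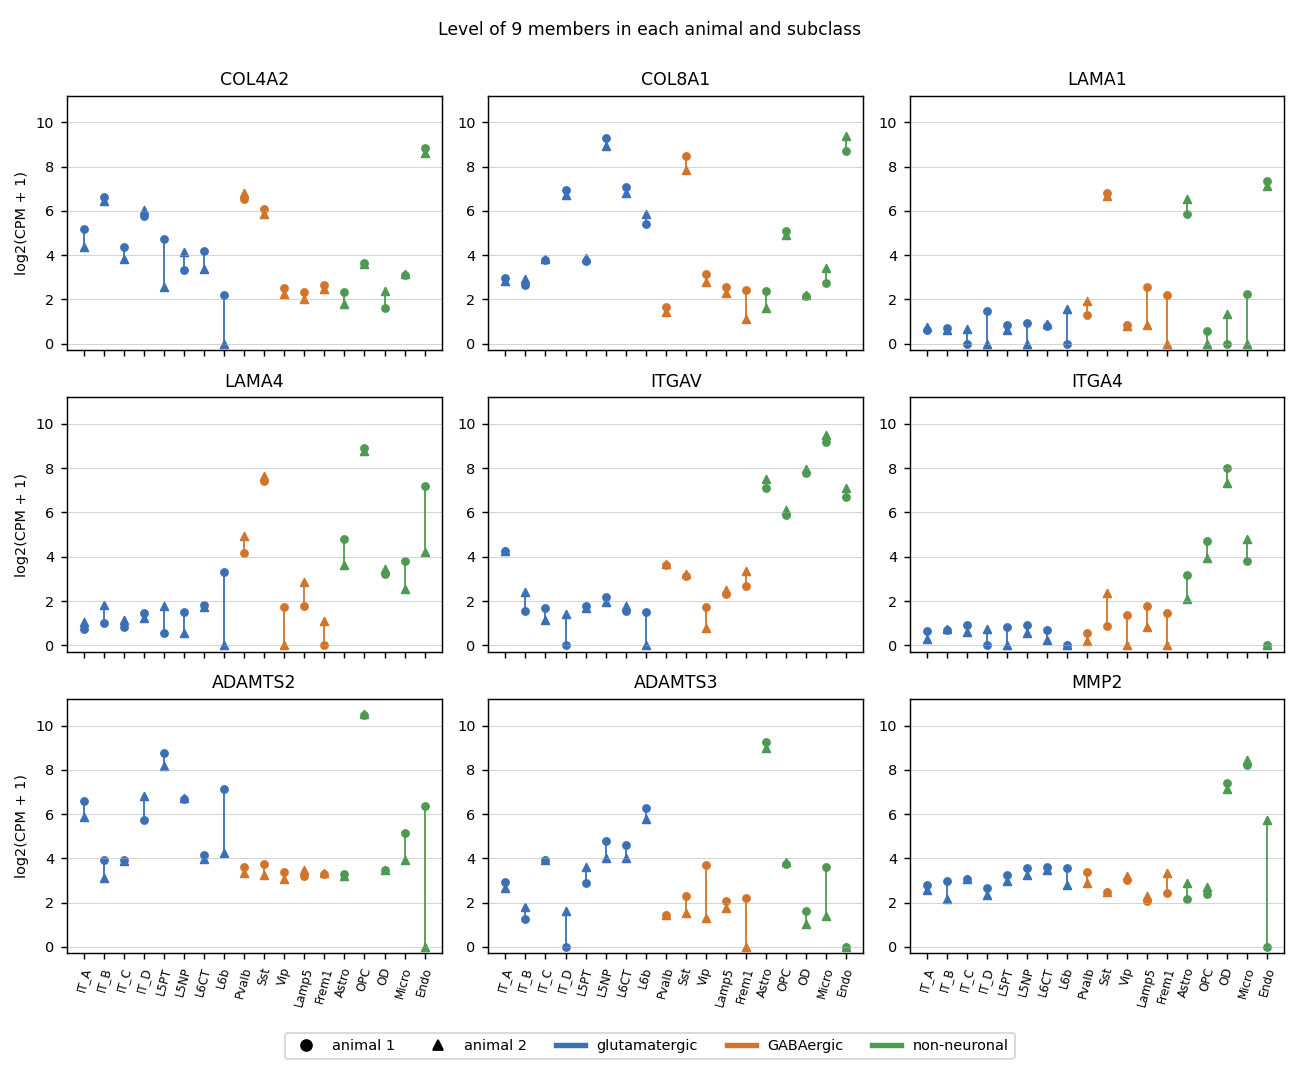
Level of 9 members in each animal (circle, animal 1; triangle, animal 2) and subclass, on a log2(CPM + 1) axis, with colours for the 3 classes and a line joining the animals. ADAMTS3 stands out in astrocytes (604 and 499 CPM), ADAMTS2 and LAMA4 in OPCs, ITGA4 in OD, ITGAV and MMP2 in microglia, and LAMA1 is high in Sst, astrocyte and endothelial nuclei alone, while long lines show L6b and endothelial sums that differ between the animals.

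Several ADAMTS proteases had their highest level in astrocytes. Of 84 members, 32 were called higher in astrocytes than in the other subclasses (38.1%, against 28.2% of all genes) and 14 lower (16.7%, above the 15.8% of all genes and below the share of genes with a symbol), and the higher calls took in 8 of 12 tested ADAMTS proteases and all 3 tested TIMPs. ADAMTS3, a procollagen-processing protease, was at 604 and 499 CPM, and no other sum exceeded 76.3 CPM (L6b of animal 1) (log2 fold change 7.04, SE 0.16, adjusted p = 3.71e-24). ADAMTS18 was at 269 and 326 CPM against at most 15.5 CPM (Lamp5 of animal 2) elsewhere (log2 fold change 7.32, SE 0.13, adjusted p = 2.17e-26). ADAMTS17 was at 238 and 259 CPM, with OPCs next at 39.7 CPM (log2 fold change 6.18). Both astrocyte sums of these 3 proteases exceeded all other sums. Sums at 0 enlarge such fitted values, and with each 0 set to the level of 3 counts the log2 differences were 6.38, 6.64 and 5.43. LAMA1, the alpha chain of the first laminin described, was at 57.0 and 91.9 CPM (log2 fold change 5.69), below Sst and endothelial nuclei and above all other sums. COL4A1 and COL4A2 were among the 14 members lower in astrocytes, at 1.71 and 0.405 CPM and 3.99 and 2.43 CPM. The fibrillin FBN3 (95.6 and 67.2 CPM) and the laminin chain LAMB2 (35.4 and 31.6 CPM) were called higher too.

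OPCs had 28 of 84 members called higher (33.3%, against 22.0% of all genes) and 8 lower (9.52%, against 11.8%). COL9A1 and COL9A2, chains of the fibril-associated collagen IX known from cartilage, were both highest there. COL9A1 was at 276 and 195 CPM against at most 54.7 CPM (L5NP of animal 2) elsewhere, and COL9A2 at 66.4 and 48.5 CPM against at most 15.97 CPM (Astro of animal 1) (log2 fold changes 6.60 and 7.07). Of the other sums 5 were at 0 for COL9A1 and 10 for COL9A2, and with these at 3 counts the log2 differences were 5.95 and 5.19. Outside OPCs the pair parted: L5NP nuclei held COL9A1 at 39.5 and 54.7 CPM and COL9A2 at 0.299 and 0 CPM. LAMA4 was at 485 and 434 CPM, with Sst next at 169.7 and 201 CPM (log2 fold change 6.72, SE 0.19, adjusted p = 3.41e-22). ADAMTS2, which removes the amino-terminal propeptide of procollagens, was at 1443 and 1463 CPM, with L5PT next at 437 and 291 CPM (log2 fold change 5.91, SE 0.16, adjusted p = 1.11e-22). For all 4 genes both OPC sums lay above every other sum. MMP16, a membrane-anchored metalloproteinase, had its highest level in OPCs as well (4277 and 4073 CPM), and it was abundant in neurons (251 to 2013 CPM). ITGB8, ITGA8 and NID1 also peaked in OPCs, at 369 CPM, 28.8 CPM and 24.5 CPM.

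Oligodendrocytes were marked by ITGA4 and ADAMTS4. Of 84 members, 19 were called higher (22.6%), below the 29.8% of all genes, and 15 lower (17.9%, against 16.4% of all genes and 20.2% of genes with a symbol), and with at most 100 nuclei per sum the higher calls fell to 12. ITGA4, the alpha chain of the VLA-4 receptor, was at 255 and 158 CPM, and no other sum exceeded 27.1 CPM (Micro of animal 2) (log2 fold change 8.18, SE 0.23, adjusted p = 1.22e-21). ADAMTS4, an aggrecanase known as a gene of mature oligodendrocytes, was at 156 and 86.6 CPM against at most 11.3 CPM (Micro of animal 1) (log2 fold change 7.32, SE 0.27, adjusted p = 1.1e-18). Both genes were higher in animal 1 than in animal 2, and the OD sums of both animals stood above all others. For each gene 8 of the other sums were at 0, and with these at 3 counts the log2 differences were 6.71 for ITGA4 and 5.90 for ADAMTS4. ADAMTS7 was at 40.5 and 42.9 CPM (log2 fold change 5.16, or 4.20 with sums at 0 set to 3 counts), with astrocytes next at 14.5 and 14.2 CPM. ITGAV was at 221 and 246 CPM (log2 fold change 4.93), second to microglia. ADAMTS5, a related aggrecanase, took the opposite course, with 0.614 and 1.57 CPM in OD and a lower call (log2 fold change -4.22), against 75.8 and 69.1 CPM in OPCs.

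Microglia carried a set of integrins with MMP2. Of 84 members, 12 were called higher (14.3%), below the 19.3% of all genes, and 17 lower (20.2%, against 16.1% of all genes and 19.6% of genes with a symbol). Of the 12, 4 were among the 10 tested alpha chains (ITGA4, ITGA9, ITGAL and ITGAV) and 4 among the 7 beta chains (ITGB1, ITGB2, ITGB5 and ITGB6). The lower calls held 1 alpha and 1 beta chain, and the median log2 fold change of the alpha chains was -0.12. ITGAL, the alpha chain of the leukocyte receptor LFA-1, was at 166 and 148 CPM, and no other sum exceeded 1.55 CPM (Lamp5 of animal 2). With 17 of 34 other sums at 0 its fitted log2 fold change of 9.95 is no bound, and with these at 3 counts the log2 difference was 7.51. Its partner ITGB2 was at 37.7 and 9.57 CPM, and in animal 2 the endothelial sum was higher, at 17.3 CPM from 1 UMI. ITGAV was at 590.3 and 733 CPM and its partner ITGB5 at 321 and 285 CPM (log2 fold changes 6.04 and 4.17). MMP2, the gelatinase A gene, was at 299.8 and 343 CPM, with OD next at 166 and 140.3 CPM and other sums at most 51.8 CPM (Endo of animal 2) (log2 fold change 4.96, SE 0.15, adjusted p = 1.14e-21). Both microglial sums of ITGAL, ITGAV, ITGB5 and MMP2 lay above all other sums. The listed macrophage markers summed to at most 3.88 CPM in any subclass, whereas the 3 T cell markers with a symbol summed to 56.6 and 23.9 CPM in microglia, against at most a mean of 10.2 CPM in the other subclasses. Nearly all of that sum was CD247, at 54.7 and 23.9 CPM, with THEMIS at 0, and its part in the integrin levels was not tested. TIMP3, LAMC1 and FBN1 were among the members lower in microglia.

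The GABAergic subclasses were then compared with the glutamatergic ones. Of 84 members, 18 were called higher in GABAergic nuclei (21.4%, against 19.4% of all genes and 22.1% of genes with a symbol) and 24 lower (28.6%, against 20.5%). The higher calls included the laminin chains LAMA1, LAMB1 and LAMC1, and the lower calls included both tested fibrillar collagens of type V. ADAMTSL3, an ADAMTS-like protein without protease activity, was at 19.3 to 893 CPM in GABAergic sums and 3.63 to 228 CPM in glutamatergic ones (log2 fold change 3.34, SE 0.17, adjusted p = 2.44e-16). These ranges overlapped, since Vip sums were low and L5PT sums high. ITGB5 was at 118 and 139.6 CPM in Lamp5, 50.8 and 59.9 CPM in Frem1 and 40.3 and 28.2 CPM in Vip nuclei against 0 to 24.2 CPM in glutamatergic sums (log2 fold change 1.93). The groups overlapped, since ITGB5 was at 5.57 and 5.47 CPM in Pvalb and 3.95 and 6.47 CPM in Sst nuclei. LAMA1 and COL26A1 were higher as well (log2 fold changes 2.70 and 2.08). The LAMA1 difference came from Sst nuclei, at 109.9 and 99.7 CPM, while the other GABAergic sums were at most 4.85 CPM, and its call was lost with at most 100 nuclei per sum.

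On the glutamatergic side COL5A2, a chain of the fibrillar collagen V, was at 0 to 132 CPM against 0.564 to 13.96 CPM in GABAergic sums (log2 fold change -3.37, SE 0.27, adjusted p = 1.91e-11). The ranges overlapped, since IT_D of animal 1 had no UMI and L6CT sums were low. ADAMTS2 was at 7.7 to 437 CPM in glutamatergic and 7.43 to 12.4 CPM in GABAergic sums, and the ranges overlapped in IT_B (log2 fold change -2.55). ADAMTS8, an aggrecan-cleaving protease, reached 30.9 and 21.8 CPM in L6b and was at most 1.15 CPM in GABAergic sums, 5 of which were at 0 (log2 fold change -4.61, or -2.11 with these at 3 counts). COL9A1 and ITGA2, a collagen receptor chain, were lower in GABAergic nuclei (log2 fold changes -2.45 and -2.42), and both genes had their highest neuronal level in L5NP. With sums at 0 set to 3 counts the log2 difference of COL9A1 was -0.93, and its call was lost when labels were predicted from other genes.

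Within the glutamatergic class each subclass was set against the mean of the other 7. Of the 84 members, 19 were called higher in IT_A (11.9% of all genes), 13 in IT_B (11.5%), 11 in IT_C (6.67%) and 15 each in IT_D (7.87%), L5PT (10.0%), L5NP (8.95%), L6CT (8.46%) and L6b (5.26%). As shares of the members these were 22.6%, 15.5%, 13.1% and, for the last 5, 17.9%, each above its share of all genes. Called lower were 14 in IT_A (16.7%, against 6.30%), 13 each in IT_B and L5PT (15.5%, against 5.93% and 5.36%), 8 each in IT_C, L5NP and L6CT (9.52%, against 3.77%, 6.70% and 4.86%), 7 in L6b (8.33%, against 5.93%) and 5 in IT_D (5.95%, against 6.54%). Of genes with a symbol 8.09% were called lower in L5NP and 7.8% in L6b, close to the members' shares. Over all 13 neuronal subclasses 178 of 1092 pairs of a member and a subclass were called higher (16.3%, against 8.74% of pairs over all genes). At least 1 neuronal subclass had a higher call for 63 of the 84 members, a larger share than the 49.6% of all genes.

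Several collagen genes differed in level among the intratelencephalic (IT) subclasses, although the values of COL5A1 and COL19A1 overlapped between IT_A and IT_B. COL5A1 was at 251 and 413 CPM in IT_B, 235 and 291 CPM in IT_A and 125 and 212 CPM in IT_C nuclei, against at most 61.0 CPM in the other glutamatergic sums (log2 fold change 3.15, SE 0.29, adjusted p = 1.5e-09, for IT_B). COL19A1, a fibril-associated collagen, was at 211 and 162 CPM in IT_B (log2 fold change 2.85) and 171 and 171 CPM in IT_A nuclei. COL25A1, a transmembrane collagen found in neurons, was highest among glutamatergic subclasses in IT_C at 957 and 659 CPM (log2 fold change 3.19, SE 0.17, adjusted p = 5.86e-14). COL5A2 was likewise highest in IT_C, at 132 and 127 CPM (log2 fold change 2.34). IT_D was instead marked by ADAMTSL1 at 655 and 559 CPM and by the protease ADAMTS9 at 42.2 and 50.8 CPM (log2 fold changes 3.52 and 4.17). ADAMTS9 was also called higher in IT_A, at a mean of 19.4 CPM, along with ITGAV at 18.01 and 17.9 CPM (log2 fold changes 2.72 and 3.23).

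Each deep-layer subclass had members at their highest glutamatergic level, although some of these were as high or higher in other classes. L5NP nuclei held COL8A1 at 631 and 481 CPM, and no other glutamatergic sum exceeded 136 CPM (L6CT of animal 1) (log2 fold change 4.38, SE 0.11, adjusted p = 3.42e-22). THBS2, a matricellular thrombospondin, was at 18.8 and 13.7 CPM in L5NP against at most 9.08 CPM elsewhere (log2 fold change 5.25). The receptor chain ITGA2 peaked in the same subclass at 66.1 and 49.5 CPM. L6CT nuclei held THSD4, a thrombospondin-type protein linked to fibrillin fibres, at 590.2 and 523 CPM (log2 fold change 3.47), with L5NP next at 426 and 418 CPM. ADAMTS6 was at 241 and 307 CPM in L6CT (log2 fold change 3.05). L6b nuclei held ITGA11, a collagen receptor chain, at 178 and 192 CPM, while no other sum of any class exceeded 21.7 CPM (Astro of animal 1) (log2 fold change 5.30, SE 0.30, adjusted p = 1.58e-13). COL12A1, a fibril-associated collagen, was at 54.5 and 95.2 CPM in L6b against at most 23.5 CPM (L6CT of animal 1) (log2 fold change 3.44). L6b sums came from 56 and 53 nuclei. L5PT nuclei held ADAMTS2 at 437 and 291 CPM and ADAMTSL3 at 156 and 228 CPM (log2 fold changes 3.29 and 3.85). Each was the highest of the glutamatergic class in both animals. Outside this class ADAMTS2 was higher in OPCs and ADAMTSL3 in Pvalb nuclei, ADAMTS6 was at 335 and 255 CPM in Sst and 263 and 312 CPM in astrocytes, and endothelial nuclei held COL8A1 at a level that overlapped with that of L5NP.

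Within the GABAergic class each subclass was set against the mean of the other 4. Of the 84 members, 22 were called higher in Pvalb (26.2%, against 13.6% of all genes), 18 in Sst (21.4%, against 10.1%), 7 in Vip (8.33%, against 6.48%), 8 in Lamp5 (9.52%, against 7.13%) and 5 in Frem1 (5.95%, against 5.68% of all genes and 6.46% of genes with a symbol). Called lower were 10 in Pvalb (11.9%, against 8.90%), 7 in Sst (8.33%, against 6.33%), 9 in Vip (10.7%, against 5.23%), 12 in Lamp5 (14.3%, against 5.25%) and 10 in Frem1 (11.9%, against 4.38%). Of genes with a symbol 10% were called lower in Pvalb and 7.38% in Sst. COL25A1 was at 1829 and 1815 CPM in Sst nuclei and 508 and 414 CPM in Pvalb nuclei, and the other GABAergic sums were at most 49.8 CPM. COL8A1 was at 354 and 232 CPM in Sst against at most 7.9 CPM (Vip of animal 1) in other GABAergic sums (log2 fold change 6.35, SE 0.17, adjusted p = 4.71e-21). LAMA4 was at 169.7 and 201 CPM in Sst and 17.3 and 29.8 CPM in Pvalb nuclei (log2 fold change 6.06, SE 0.35, adjusted p = 4.38e-14, for Sst, or 5.41 with sums at 0 set to 3 counts). Sst nuclei therefore held LAMA1 and LAMA4 at a level above the other 12 neuronal subclasses in both animals, whereas the common gamma chain LAMC1 was at 197 and 191 CPM there and 87.3 to 246 CPM across neuronal sums.

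Pvalb nuclei held COL19A1 at 399.5 and 314 CPM, the highest of all subclasses, against at most 29.9 CPM (Sst of animal 1) in the other GABAergic sums (log2 fold change 4.72, SE 0.15, adjusted p = 6.68e-19). COL4A1 was at 64.1 and 89.3 CPM in Pvalb and 40.9 and 48.3 CPM in Sst nuclei (log2 fold change 4.13 for Pvalb), and COL4A2 followed at 90.6 and 112 CPM and 67.6 and 57.8 CPM. The other GABAergic sums held COL4A1 at most at 4.46 CPM. Endothelial markers summed to 45.3 CPM in Pvalb nuclei, with CDH5 at 0, against 8659 CPM in endothelial nuclei. Vip nuclei held THSD7B at 1787 and 1625 CPM against at most 311 CPM (Pvalb of animal 1) in the class (log2 fold change 4.41, SE 0.11, adjusted p = 2.43e-21). COL26A1, a secreted collagen-like protein, was at 51.3 and 63.9 CPM in Vip and 53.5 and 41.5 CPM in Frem1 nuclei (log2 fold changes 2.98 and 2.64), which overlapped, and at most 8.75 CPM in the other GABAergic sums. Lamp5 nuclei held ITGB5 at 118 and 139.6 CPM (log2 fold change 3.10). ADAMTSL1 was at 155 and 160.2 CPM in Frem1 and 94.5 and 96.2 CPM in Lamp5 nuclei (log2 fold changes 3.23 and 2.38), above the other 3 GABAergic subclasses in both animals.

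**Figure D3:**
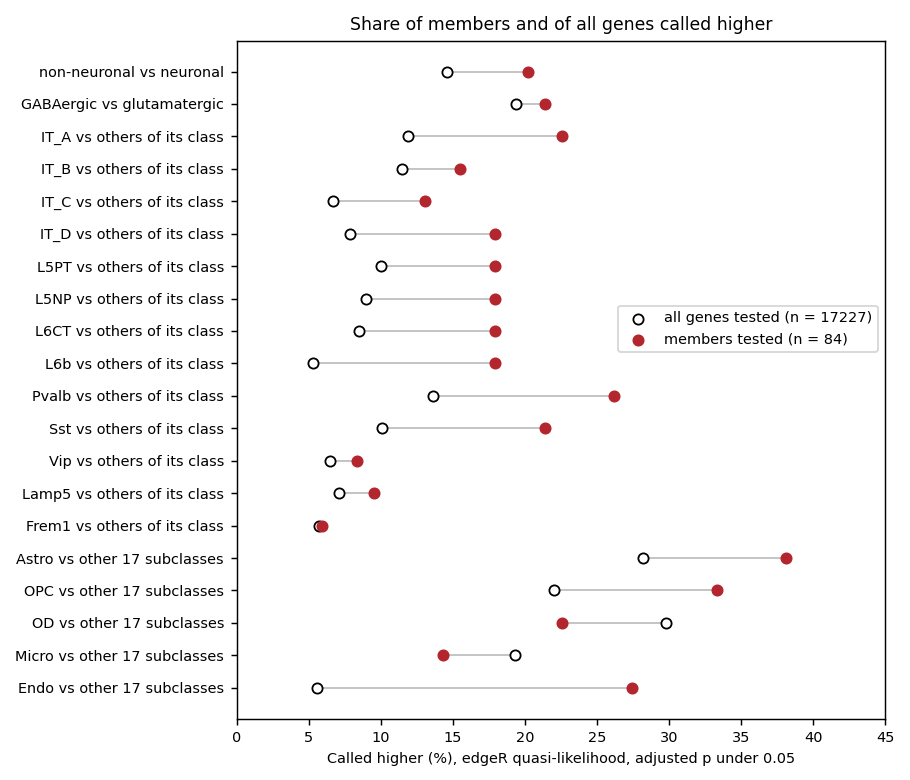
Percent of the 84 tested members (filled) and of all 17227 tested genes (open) called higher in each of 20 comparisons by edgeR's quasi-likelihood test at an adjusted p under 0.05. The gap is widest for endothelial nuclei (27.4% against 5.58%), and the order is turned in OD (22.6% against 29.8%) and microglia (14.3% against 19.3%).

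Levels also differed among the types that the annotation draws within a subclass, given here as values with no test. COL8A1 in Sst nuclei was at 796 and 559.7 CPM in type Sst_1 and 346 and 216 CPM in Sst_2, but at 26.3 and 12.3 CPM in Sst_3 and 11.7 and 28.6 CPM in Sst_4. COL25A1, in contrast, stayed at or above 1063 and 1007 CPM, its values in Sst_3, in all 4 types. ADAMTSL3 was at 1041 and 1077 CPM in Pvalb_1 and 1143 and 1063 CPM in Pvalb_4, and at 14.5 and 6.01 CPM in Pvalb_5. Type Pvalb_5 showed the opposite order for COL4A1, at 218 and 323 CPM, with 80.5 and 84.4 CPM in Pvalb_1 and lower levels in Pvalb_3, Pvalb_4 and Pvalb_6. THSD7B was at 3747 and 2699 CPM in Vip_2 and 946 and 979 CPM in Vip_1. ITGA4 was at 480.2 and 437 CPM in OD_4 against 118 and 56.5 CPM in OD_3, whereas ADAMTS7 had the reverse order with 13.6 and 2.75 CPM and 63.9 and 52.9 CPM. The astrocyte types held ADAMTS18 at similar levels, from 225 and 298 CPM in Astro_2 to 299.8 and 367 CPM in Astro_3. COL5A1 was graded over the IT_A types, from 370.1 and 366 CPM in IT_A_1 to 103 and 95.1 CPM in IT_A_5.

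**Figure D4:**
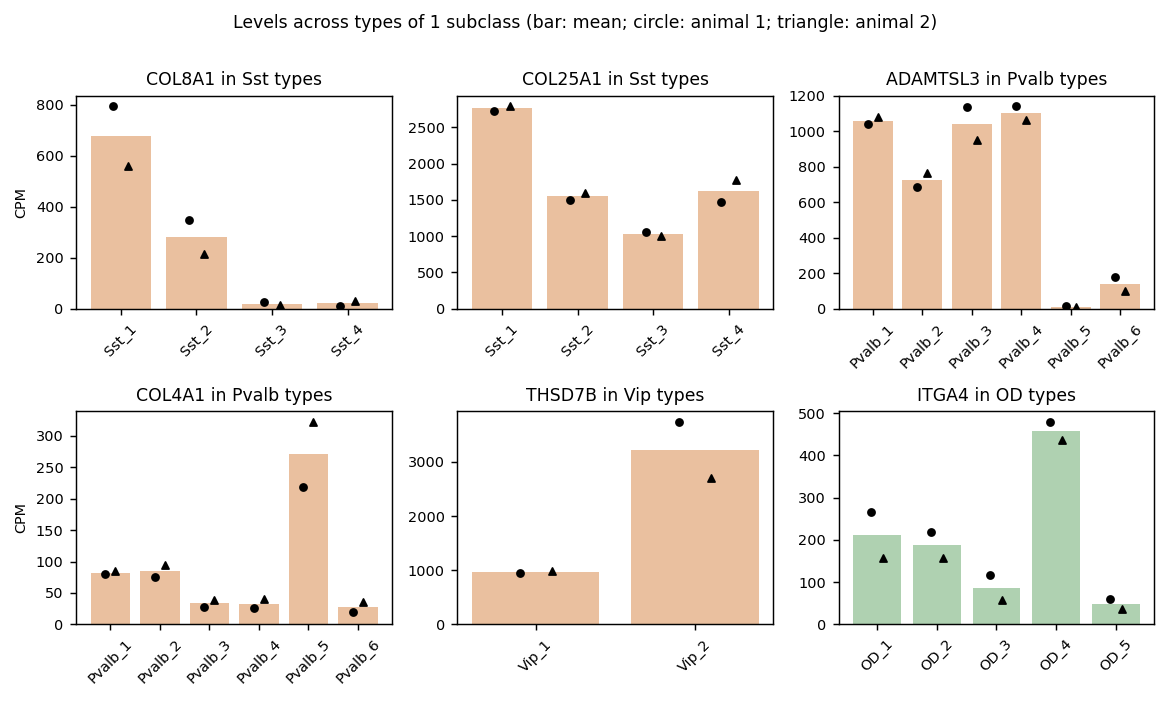
CPM of 6 members across the types of a subclass, with bars for the mean of 2 animals, circles for animal 1 and triangles for animal 2, on linear axes from 0. COL8A1 is high in types Sst_1 and Sst_2 alone, ADAMTSL3 is low and COL4A1 high in Pvalb_5, and ITGA4 is highest in OD_4 (480.2 and 437 CPM).

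The inhibitors and the broad members followed other patterns. TIMP3, a matrix-bound inhibitor, was present in every sum at 17.5 to 501 CPM, and was called higher in astrocytes, OPCs and OD (log2 fold changes 1.48, 0.99 and 0.68). TIMP4 was called higher in the same 3 subclasses, at 53.6 and 57.5 CPM, 73.0 and 83.4 CPM and 38.3 and 51.8 CPM. TIMP2 was called higher in astrocytes, OPCs and microglia (log2 fold changes 1.33, 1.35 and 1.27). FBN1, the microfibril protein fibrillin 1, was broad in neurons at 71.3 to 305 CPM and called lower in astrocytes at 20.5 and 19.8 CPM. MMP24, a membrane-type metalloproteinase of neurons, was even across neuronal sums at 35.4 to 60.2 CPM and was called lower in astrocytes at 8.84 and 7.29 CPM and higher in OD at 46.0 and 35.1 CPM. The OD call is against the mean of the other 17 subclasses, and the OD sums did not exceed the neuronal range. ITGA3, a laminin receptor chain, was at 26.8 to 64.7 CPM in neuronal sums and 2.49 to 7.97 CPM in glia, with no overlap. In endothelial nuclei its 1 and 4 UMIs gave 20.6 and 69.1 CPM, values below and above the neuronal range, and the log2 fold change for all non-neuronal nuclei was -2.83. Neuronal ITGA3 was lower in GABAergic than in glutamatergic nuclei (log2 fold change -0.78), and the L6b sums lay within the GABAergic range.

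Known integrin and laminin partners were compared by subclass, since a receptor or trimer needs all its chains in 1 cell. ITGAL and ITGB2 shared their highest mean, in microglia, although for ITGB2 microglia were highest in animal 1 alone. ITGAV shared microglia with ITGB5 and with ITGB6, the latter at only 3.77 and 4.78 CPM. ITGB3, another partner of ITGAV, had its highest mean in Pvalb nuclei, at 11.8 and 11.8 CPM, with IT_B close at 8.15 and 15.1 CPM. ITGB8, a further partner, was highest in OPCs, where ITGAV was at 57.8 and 68.4 CPM. ITGA11, which pairs with ITGB1, peaked in L6b, where ITGB1 was at 9.08 and 11.9 CPM, among its lowest neuronal levels. ITGA4, another partner of ITGB1, peaked in OD, where ITGB1 was at 23.7 and 20.7 CPM. ITGA6 and ITGB4 shared endothelial nuclei, but the 4 ITGB4 UMIs there all came from animal 1. Of the laminin chains, LAMA1, LAMA2, LAMA3, LAMA5, LAMB1 and LAMB2 were highest in endothelial nuclei, LAMB2 at 41.2 and 138 CPM and LAMB1 at 20.6 and 17.3 CPM, the latter from 1 and 1 UMIs. LAMC1, the gamma chain of most laminins, was present in every sum at 47.1 to 246 CPM, and was lowest in microglia at 47.1 and 49.4 CPM.

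Related genes that are not members were counted from lists drawn up for this comparison. Of 16 tested genes for collagen folding and crosslinking, 9 were called higher in OPCs and none lower, 7 higher and 3 lower in astrocytes, and 1 higher and none lower in endothelial nuclei. Over all genes tested the shares were 22.0% higher and 11.8% lower in OPCs, 28.2% and 15.8% in astrocytes, 19.3% and 16.1% in microglia, and 5.58% and 8.54% in endothelial nuclei. Their examples are the procollagen modifier PCOLCE2, highest in OPCs at 51.7 and 46.0 CPM, and the lysyl hydroxylase PLOD1, highest there at 92.9 and 110.1 CPM. Of 15 integrin adaptors and signalling genes, 4 were called higher and 6 lower in microglia, where the adaptor LIMS1 reached 1177 and 1137 CPM, and 3 were higher and 1 lower in endothelial nuclei, where TNS1 reached 845 and 1002 CPM. Of 11 further basement membrane and matricellular genes 4 were called higher and none lower in endothelial nuclei, and 7 higher and 2 lower in astrocytes. On this list the perlecan gene HSPG2 was at 61.8 and 138 CPM and the elastic fibre gene FBLN5 at 247 and 242 CPM in endothelial nuclei. Of 7 other matrix receptors 4 were called higher and 1 lower in astrocytes, where the syndecan SDC4 was at 93.8 and 128 CPM. These lists overlap in no gene with the members.

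The highest subclass agreed between the animals for most members, since 63 of the 84 tested members had their highest level in the same subclass in both, as did 52.0% of all genes. Differences between the animals were left untested, with 1 animal at each age. Over the 44 members with at least 20 UMIs in at least 10 subclasses, 2 lay on 1 side in all of those subclasses (4.55%, against 2.87% of 11131 genes of that depth). COL5A1 was higher in animal 2 in all 15 such subclasses, with a median log2 ratio of 0.90. ITGBL1 was lower in animal 2 in all 14, with a median of -0.83. The types within a subclass held different shares of the nuclei of each animal, as in IT_A_1 with 981 of 4301 IT_A nuclei of animal 1 and 2465 of 5563 of animal 2. Within this type COL5A1 was at 370.1 and 366 CPM, while in IT_B, which has 1 type, it was at 251 and 413 CPM. ITGBL1 was at 4.62 and 3.01 CPM in IT_A_1 and 12.9 and 4.11 CPM in IT_B, and the part of the type makeup in these ratios was not tested. These 2 members, and those outside the rule for named genes, were singled out after their values had been seen.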

How the data were processed

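Nuclei of V1 from both hemispheres were pooled per animal, and each suspension was run in 2 wells of a 3′ droplet assay, whose 2 libraries were added together and counted as 1 replicate. The deposited raw UMI counts per gene and nucleus include intronic reads and were made by the authors against ASM229v1 with extended 3′ gene ends. Cell Ranger 6.1.1 is named per the labels, and 7.1.0 per the file headers. The authors called doublets with Scrublet and assigned subclasses. Of 36558 barcodes 32764 were labelled, 798 of them called doublets, and 2315 were left out as ambiguous or doublet clusters.

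Counts were summed per animal and subclass into 36 sums and tested with edgeR 4.0.16 in R 4.3.3 (quasi-likelihood test, TMM, filterByExpr by subclass, Benjamini-Hochberg adjustment over all 17227 genes at 0.05). The code was tested on simulated data. The members and lists were chosen with earlier results of these data known. Named members were the largest fold changes that passed the test with 1 direction in both animals and at least 10 CPM, namely 5 per direction between classes, 4 per non-neuronal and 2 per neuronal subclass. Partner chains were added. Sums of the same animal deviated together, with a median correlation of 0.134 (0.0204 to 0.597) over 136 pairs of subclasses, and of 0.0034 to 0.0556 with endothelial sums. Alternatives were DESeq2 1.42.0, no TMM, no filter, an animal block, no called doublets, at most 100 nuclei per sum, neuronal sums alone, 1 animal at a time, and labels predicted from other genes, which matched 95.7% of labels. No coordinates or sequences of the members were used here. Not every gene that the naming rule selected is reported here.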

Additional observations from a re-analysis of the deposited data

Results flagged for a closer look

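Of the members in nuclei that the annotation gives no subclass and that no comparison used, FN1 and THBS1 lay in both animals above 10 CPM and above 2 times their highest labelled level. In the left-out ambiguous non-neuronal nuclei FN1 was at 142.9 CPM in animal 1 and 176.8 CPM in animal 2, from 56 and 69 UMIs, against 63.8 CPM in endothelial nuclei, its highest labelled subclass. The mural markers summed to 246.8 CPM in these nuclei, against at most 119.6 CPM in a labelled subclass, the fibroblast markers to 265.8 CPM, below the 415 CPM of Vip nuclei, the astrocyte markers to 2733 CPM and the neuronal markers to 1775 CPM, and their part in the FN1 level was not tested. Other members exceeded their highest labelled level there in both animals but missed 2 times that level, or 10 CPM, in at least 1 animal, such as FBN1 at 742.7 and 532.9 CPM against 286 CPM in L6b, ITGBL1 at 89.3 and 58.9 CPM against 31.96 CPM in L6b, ADAMTS16 at 84.2 and 87.1 CPM against 58.2 CPM in astrocytes, and ITGA8 at 79.1 and 43.6 CPM against 28.8 CPM in OPCs. In the left-out ambiguous GABAergic nuclei THBS1 was at 10.8 CPM in animal 1 and 12.7 CPM in animal 2, from 7 and 14 UMIs, against 3.61 CPM in IT_B, its highest labelled subclass.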

How the results depend on the processing

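Of 79 alternative counts of called members, 76 stayed within 1.5 times the reported count. The members higher in non-neuronal nuclei numbered 34 with DESeq2 and 8 with at most 100 nuclei per sum, and those higher in oligodendrocytes numbered 12 with at most 100 nuclei per sum. The cause was not tested, although the capped sums hold fewer nuclei and left 71 members to test. With the animal as a replicate block the counts were 17 higher and 25 lower in non-neuronal nuclei, 18 higher and 23 lower in GABAergic nuclei, 34 in astrocytes, 30 in OPCs, 21 in oligodendrocytes, 13 in microglia, 22 in endothelial nuclei and 196 neuronal pairs. With 1 animal at a time, each call was scored by its direction alone: 22 to 22 of the 23 endothelial calls and 176 to 177 of the 178 neuronal pairs kept theirs, as did every call of the other counts. Of 652 alternative values of named members 646 kept their call or, with 1 animal at a time, their direction, and none reversed. For each animal left out 66 of these values were scored by direction alone. The naming rule had fixed that outcome, so they are no test. The exceptions were LAMA4, LAMA5 and COL26A1 in non-neuronal nuclei and LAMA1 in GABAergic nuclei with capped sums, and ITGB8 and COL9A1 with predicted labels. Depth limits the endothelial sums most.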
